A study of Mus musculus with 6 samples.

Results

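The mitochondrial ribosomal protein genes of CD4+ T cells were taken as every row of the deposited expression table whose symbol was Mrpl or Mrps followed by a digit. This rule found 78 of the 14379 genes in the table, 49 of the large subunit (Mrpl) and 29 of the small subunit (Mrps) by symbol. RNA-seq was compared between 3 libraries of naive CD4+ T cells, placed at day 0 by their titles, and 3 libraries of CD4+ T cells at day 2 of activation with anti-CD3/anti-CD28. Both groups came from lymph nodes and spleen of wild-type C57BL/6 (WT B6) mice that carried no engineered allele. The study's methods describe naive cells isolated by FACS and stimulated with plate-coated anti-CD3e and soluble anti-CD28 without polarizing cytokines. The design has no cultured but unstimulated cells, so effects of activation and of culture cannot be told apart. The methods name young adult mice of both sexes for such experiments but tie no age or sex to a library, and pooling of animals is not stated.

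Mitochondrial ribosomes translate the few mRNAs that mitochondrial DNA encodes, all for subunits of the respiratory chain and ATP synthase. Their ribosomal RNAs are made inside the organelle, whereas every mitochondrial ribosomal protein is encoded in the nucleus, made in the cytosol and imported. The small subunit binds the mRNA and reads its codons, and the large subunit joins amino acids and releases the chain through its exit tunnel toward the inner membrane. Some of the proteins descend from bacterial ribosomal proteins and others are found in mitochondria only. T cells are known to build new mitochondria after activation, before they divide.

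Values lay on a log2 scale between 1.17 and 15.01, under column names that call them FPKM, a measure per transcript length. Levels of different genes are set side by side on it below. The sheet was named for the ComBat batch correction, which could have shifted these levels. Genes without signal shared a base value of 1.99 (3.97 on the linear scale). The table holds no read counts, so the sequencing depth is unknown. The filter on low values asked for 1 linear unit or more over this base in no fewer than 3 of the 6 libraries. All 78 genes passed it, and limma tested them among the 10173 genes that passed. Genes called higher or lower had an adjusted p below 0.05 and differed by 1.5-fold or more.

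The libraries of each group were not equally alike. Naive replicates 1 and 2 shared identical values for 352 genes and activated replicates 2 and 3 for 670 genes, and the SD of the log2 differences was 0.14 and 0.09 in these pairs against 0.26 to 0.33 toward the remaining library of the group. Naive replicate 3 and activated replicate 1 therefore stand apart, and counts, medians and the largest changes without them are given below. All 6 CD4 T cell markers tested were present, with naive mean levels between 7.52 (Cd28) and 10.88 (Cd3g) on the log2 scale, and all 6 were lower in activated cells. Of 4 CD8 T and NK cell markers tested, Klrd1 fell by 2.96, Cd8b1 by 2.34 and Klrb1c by 1.34 on the log2 scale, and Nkg7 was 1.99 higher. Of 3 myeloid markers tested, Lyz2 fell by 1.86, while Itgam (-0.385) and Cd68 (0.135) were not called. Cd8a, Ncr1, Pax5, Csf1r, Cd14 and Adgre1 were below the filter, and 0 of 4 B cell markers tested were called. The part that other cells had in the results was not tested, and in bulk RNA fewer cells of a type and less RNA per cell cannot be told apart.

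Mitochondrial ribosomal protein genes were higher in activated cells almost throughout. Of the 78 genes, 66 were called higher and 0 lower by limma, a share of 84.6% against 31.2% of all genes tested called higher and 21.6% called lower. The median change was 1.25 on the log2 scale, or 2.38-fold, while the median over all genes tested was 0.13. The middle of the distribution was narrow, with quartiles of 0.84 and 1.67, and the full range ran from -0.23 (Mrpl58) to 3.23 (Mrpl20). Of the 66 genes, 50 were at least 2-fold higher and 10 at least 4-fold. Every activated library lay above every naive library for 71 of the 78 genes, against 43.9% of all genes tested. Part of the size depended on how the libraries were scaled. Quantile normalization moved the median of all genes from 0.13 to -0.00 and that of the 78 genes to 0.92, with 56 called higher and 1 lower. Upper-quartile scaling moved these medians to -0.04 and 1.03, with 60 called higher. Of all genes tested, 25.5% were called higher with quantile normalization and 25.3% with upper-quartile scaling. Relative to the median of all genes, the 78 genes stood 1.12 higher as deposited, 0.92 with quantile normalization and 1.07 with upper-quartile scaling.

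**Figure D1:**
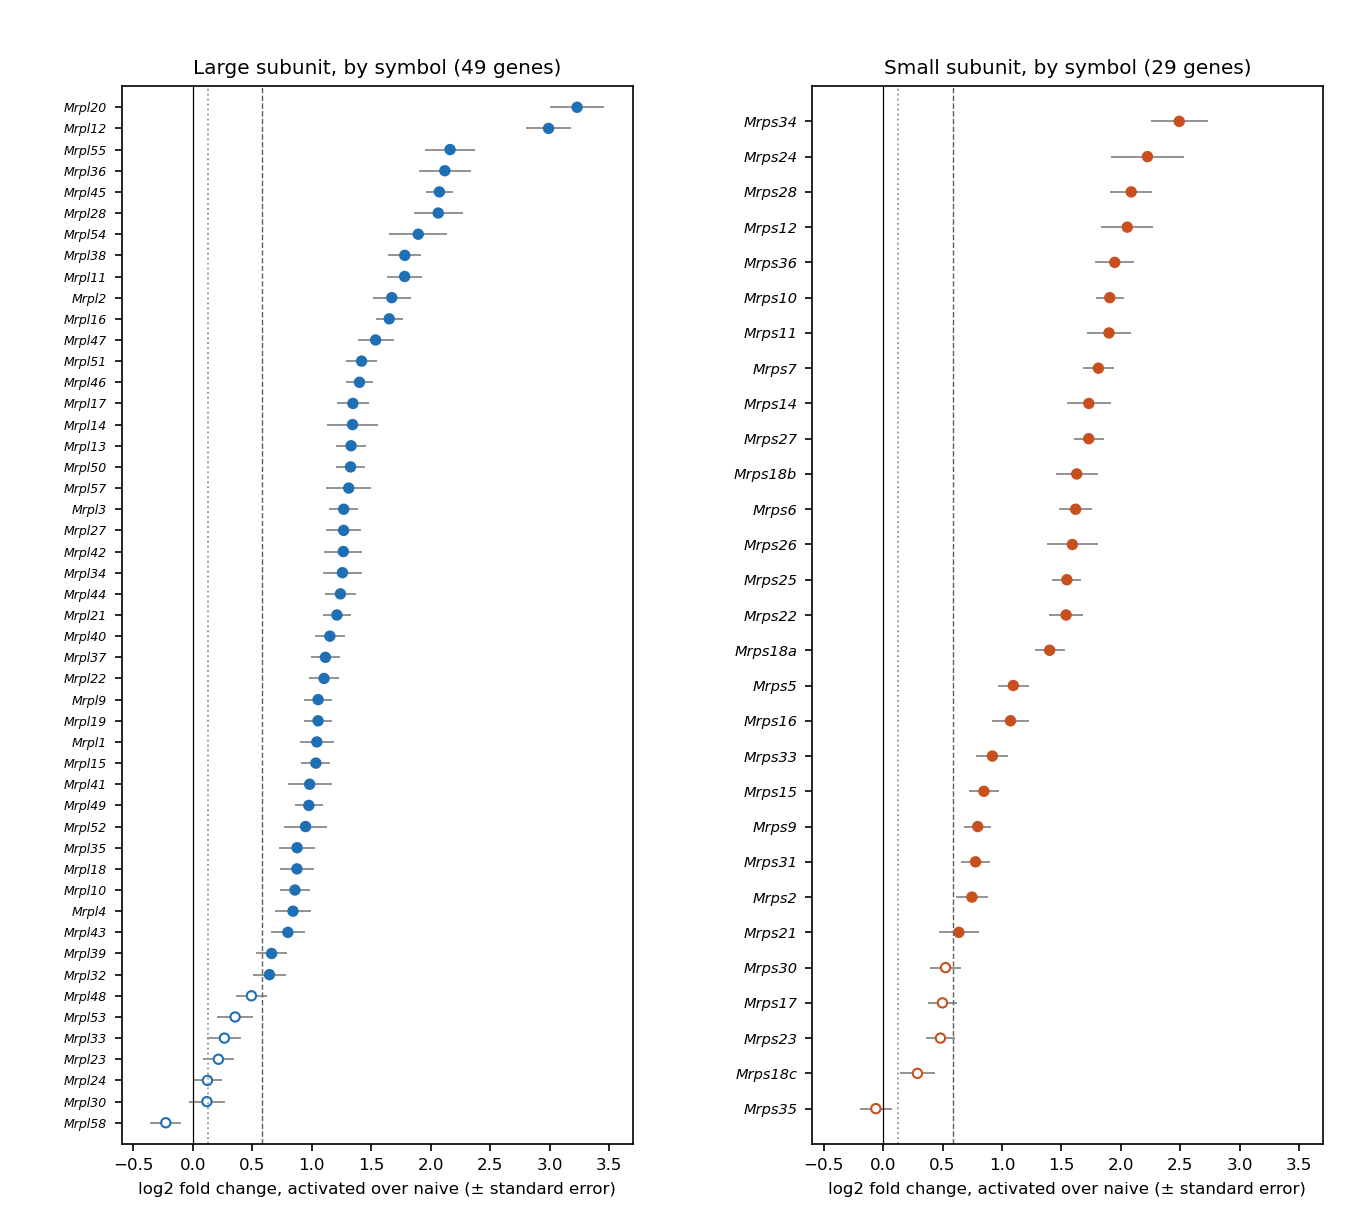
Log2 fold change, activated over naive, of each mitochondrial ribosomal protein gene (point) with its standard error (bar), for the 49 genes of the large subunit (left) and the 29 of the small subunit (right). Filled points were called higher. The solid line marks no change, the dotted line the median of all genes tested (0.13) and the dashed line 1.5-fold. The middle of the genes lies between 0.84 and 1.67, Mrpl20 and Mrpl12 stand at 3.23 and 2.99, and only Mrpl58 and Mrps35 lie left of 0, where quantile normalization places 5 more.

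As a share of all RNA signal, the 78 genes together took 0.482%, 0.503% and 0.42% of the summed linear values above the base in the 3 naive libraries. In the activated libraries they took 0.994%, 1.11% and 1.13%. The lowest activated library was thus well above the highest naive library. The order of the genes by level was largely kept, with a Pearson correlation of 0.78 and a Spearman correlation of 0.75 between the naive and the activated log2 level across the 78 genes, close to the 0.79 and 0.74 seen across all genes tested. These correlations describe genes within the same 6 libraries, which are not independent replicates. The spread of levels among the members was also similar, with an SD across genes of 1.01 in naive and 1.00 in activated cells.

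Comparing the subunits, 42 of 49 large subunit genes (85.7%) and 24 of 29 small subunit genes (82.8%) were called higher. The median change was 1.21 (2.32-fold) for the large and 1.54 (2.91-fold) for the small subunit, a difference of -0.33 on the log2 scale. By median, small subunit genes were the lower in naive cells and level with the large subunit in activated cells. Their median log2 level was below that of the large subunit in each naive library, at 5.19 against 5.55, 5.26 against 5.67 and 5.08 against 5.36. In the activated libraries the medians were 6.72 against 6.64, 6.70 against 6.70 and 6.70 against 6.67. The large minus small difference was thus 0.28 to 0.41 in the naive libraries and -0.08, -0.00 and -0.03 in the activated ones. No p is given for this difference, because the genes of a subunit are not replicates of a condition.

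The shift in medians was not seen in the summed signal, which highly expressed genes dominate. The large subunit made up 67.1%, 67.0% and 67.1% of the members' summed linear values in naive libraries and 67.6%, 67.8% and 68.0% in activated libraries. Symbols do not always follow the structure, since the proteins of Mrps30 and Mrps18a sit in the large subunit, as mL65 and mL66, and that of Mrps36 is now assigned to the 2-oxoglutarate dehydrogenase complex. With these 3 genes moved or left out, 43 of 51 large and 22 of 26 small subunit genes were called higher, and the medians were again 1.21 and 1.54. Homologs of bacterial ribosomal proteins (39 of 45 called, median 1.21) and proteins specific to mitochondria (26 of 32 called, median 1.25) had close medians.

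**Figure D2:**
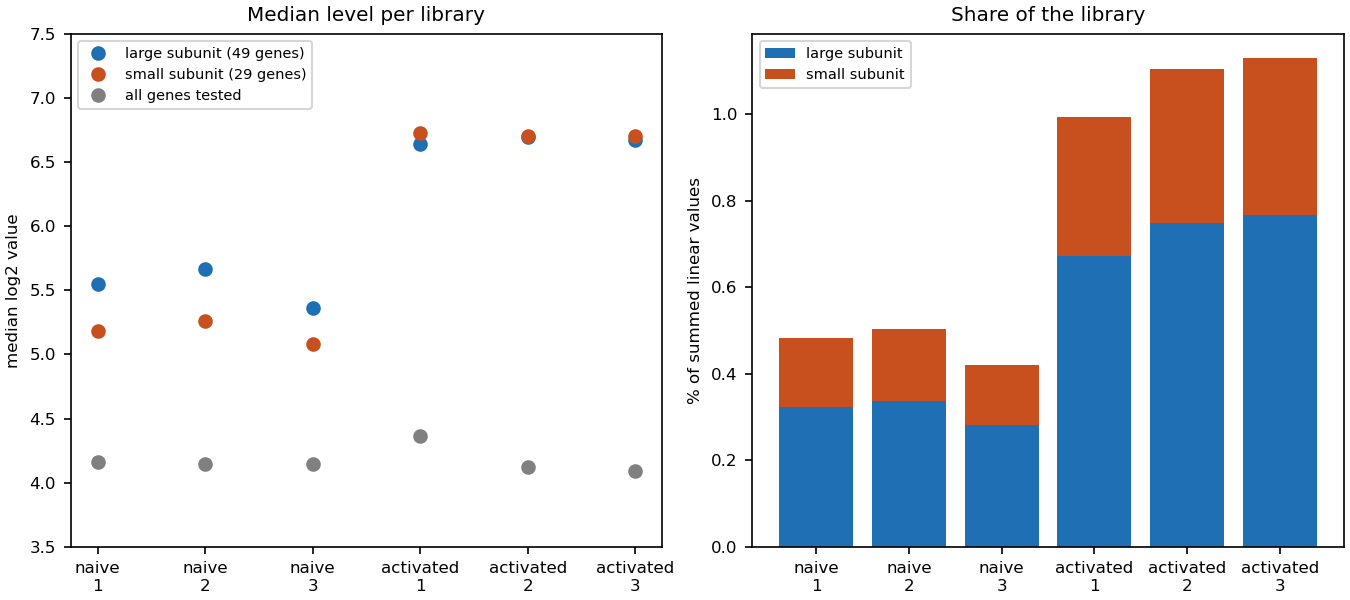
Left, median log2 value per library of large subunit genes, small subunit genes and all genes tested. Right, share of the summed linear values above the base taken by both subunits, as stacked bars in percent. The subunit medians lie 0.28 to 0.41 apart in naive libraries and nearly coincide in activated libraries, while the stacked share rises from between 0.42% and 0.503% to between 0.994% and 1.13%.

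The largest change was that of Mrpl20 (bL20m, chr4:155802878-155809975 in GRCm38, plus strand), whose bacterial homolog binds ribosomal RNA early in large subunit assembly. Its log2 levels were 5.26, 5.48 and 4.53 in naive and 8.12, 8.40 and 8.45 in activated libraries. The groups did not overlap, and naive replicate 3 was the lowest library. Mrpl20 rose 9.39-fold (log2 3.23, SE 0.23, adjusted p = 2.2e-06 by limma, n = 3 against 3), rank 93 among all genes tested. Among the members it moved from place 47 by level in naive cells to place 5 in activated cells.

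The 3 stalk genes encode the flexible arm of the large subunit that recruits translation factors. All 3 were called higher, as were 84.6% of all members, though by different amounts. Mrpl12 (bL12m, chr11:120484613-120489065, plus strand), which forms the tip of the stalk, stood at 6.24, 6.48 and 5.75 in naive and 9.06, 9.16 and 9.23 in activated libraries. It became the second highest member by level, and its change of 7.95-fold (log2 2.99, SE 0.19, adjusted p = 1.03e-06 by limma) ranked 138 among all genes tested. Mrpl11, at the stalk base, rose by 1.78, and Mrpl10, which ties the stalk to the base, rose by 0.86 on the log2 scale.

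The 5 large subunit genes whose proteins surround the peptidyl transferase centre, where peptide bonds form, were all called higher, Mrpl2 by 1.67, Mrpl16 by 1.65, Mrpl3 and Mrpl27 by 1.27 each and Mrpl4 by 0.84. Exit tunnel genes were divided, with 3 of 5 called. Beside the 84.6% of all members called, and with so few genes per site, neither count sets a site apart. Mrpl45, which anchors the ribosome at the inner membrane, was 4.71, 4.65 and 4.77 in naive and 6.78, 6.79 and 6.78 in activated libraries. Its replicates were the closest of the strongly changed genes, and it rose 4.21-fold (log2 2.07, SE 0.11, adjusted p = 5.29e-07 by limma). Mrpl47 rose by 1.54 and Mrpl22 by 1.10, whereas Mrpl23 (0.22 higher, adjusted p = 0.168) and Mrpl24 (0.12 higher, adjusted p = 0.373) were not called. Mrpl24 lay between 6.36 and 6.45 in naive and between 6.43 and 6.60 in activated libraries, so that its groups overlapped, and both genes came out slightly lower with quantile normalization (-0.14 and -0.28). Other large subunit genes with a change of at least 4-fold were Mrpl55 (2.16), Mrpl36 (2.12) and Mrpl28 (2.06 on the log2 scale).

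In the small subunit, Mrps34 (mS34, chr17:24895116-24897502, plus strand), a protein found in mitochondria only that mouse small subunits need for their stability, changed most. Its levels were 4.66, 4.81 and 3.81 in naive and 6.90, 6.82 and 7.04 in activated libraries, without overlap. The change was 5.62-fold (log2 2.49, SE 0.24, adjusted p = 1.36e-05 by limma). Mrps24 (uS3m, chr11:5703983-5715680, minus strand), whose bacterial homolog lines the mRNA entry, followed with 5.55, 5.75 and 4.38 against 7.29, 7.51 and 7.55. Here the naive libraries were far apart, with replicate 3 1.27 below the mean of the others, and the change of 2.22 had the highest standard error of the members (0.31). Mrps28 rose by 2.09, Mrps36 by 1.95 and Mrps10 by 1.91.

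Genes of the decoding region and mRNA channel were all called, 4 of 4, where 84.6% of all members were called. With so few genes, the count does not set this site apart. Mrps12, the homolog of the bacterial protein whose mutations give streptomycin resistance, was 5.18, 5.38 and 4.45 in naive and 7.02, 7.05 and 7.10 in activated libraries, a rise of 2.05. Mrps11 rose by 1.90, Mrps7 by 1.81 and Mrps5 by 1.10. The lowest member of the 4 thus still changed by more than 2-fold.

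Of the 3 Mrps18 paralogs, which descend from a single bacterial protein, 2 were called higher. Mrps18a, a large subunit protein, stood at 5.40, 5.56 and 5.34 in naive and 6.72, 6.89 and 6.89 in activated libraries and rose by 1.40. Mrps18b lay between 4.93 and 5.32 in naive libraries, against 7.04, 6.51 and 6.59 in activated ones, and rose by 1.63. Mrps18c, the closest homolog of the bacterial protein, was the highest of the 3 in naive cells, at 7.17, 7.14 and 7.08, and was 7.16, 7.51 and 7.60 in activated cells. Its groups overlapped, and the difference of 0.29 did not pass (adjusted p = 0.10 by limma) and turned to -0.20 with quantile normalization. The 3 genes lay between 6.51 and 7.60 in all activated libraries. The difference between the paralogs' changes was not tested.

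**Figure D3:**
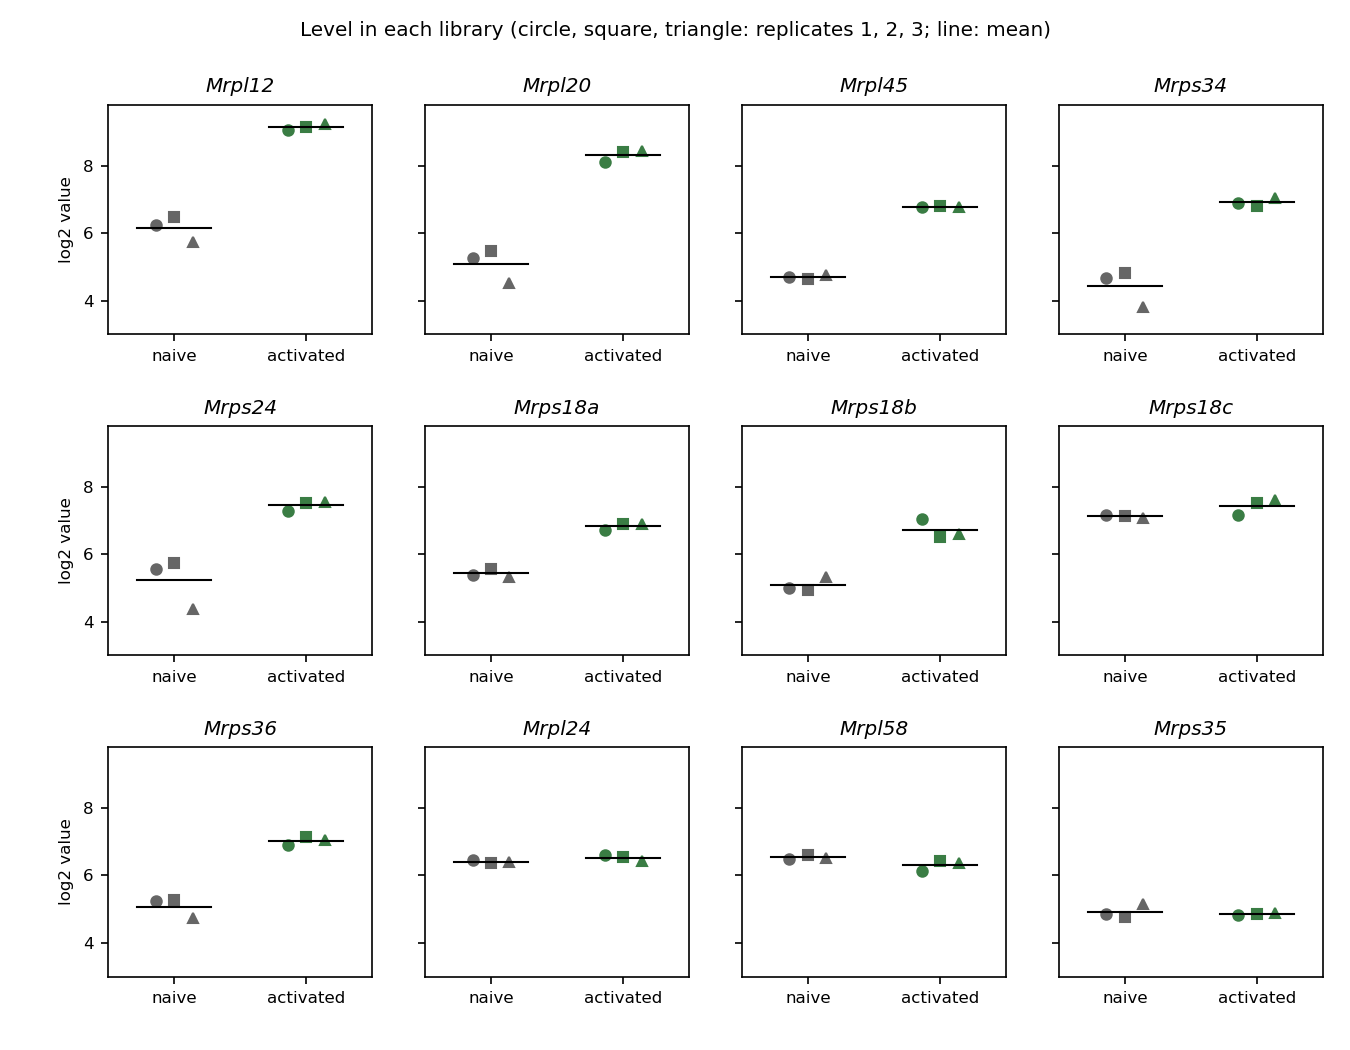
Log2 value of 12 mitochondrial ribosomal protein genes in each library, naive (grey) and activated (green). Circles, squares and triangles are replicates 1, 2 and 3, and lines are group means (n = 3 each). Mrpl12, Mrpl20, Mrpl45, Mrps34, Mrps24, Mrps18a, Mrps18b and Mrps36 show no overlap between groups, with naive replicate 3 low in several, while Mrps18c, Mrpl24 and Mrps35 overlap and Mrpl58 lies slightly lower in activated libraries.

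The 12 genes that were not called included some with high levels before activation. Mrpl30 (7.36), Mrps18c (7.13), Mrpl33 (6.91), Mrpl58 (6.53) and Mrpl24 (6.40 mean log2 level) held places 3, 4, 6, 12 and 13 of 78 in naive cells, and places 14, 16, 19, 51 and 48 in activated cells. Mrpl58 (mL62, chr11:115403752-115412674, plus strand), a peptidyl-tRNA hydrolase that frees stalled mitochondrial ribosomes and is also a fixed part of the large subunit, was the only member whose activated libraries all lay below its naive libraries. It was 6.48, 6.60 and 6.51 in naive and 6.12, 6.43 and 6.36 in activated cells, a difference of -0.23 (SE 0.13, adjusted p = 0.145 by limma). With quantile normalization the difference grew to -0.62 and passed the test. Mrps35 stood at 4.84, 4.77 and 5.15 against 4.83, 4.86 and 4.89, so that its groups overlapped, and differed by -0.06 (adjusted p = 0.701). Mrpl30 (0.12), Mrpl33 (0.27) and Mrpl53 (0.36) did not pass either.

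Another 4 of the 12, Mrps30 (0.53), Mrps17 (0.50), Mrpl48 (0.49) and Mrps23 (0.48 on the log2 scale), had adjusted p under 0.05 but stayed under 1.5-fold. Just inside the fold threshold were Mrps21 (0.64), Mrpl32 (0.64) and Mrpl39 (0.66). Groups overlapped for 6 of the 12, Mrps18c, Mrpl33, Mrpl23, Mrpl24, Mrpl30 and Mrps35. Most of the not called genes were thus small positive differences rather than falls, although Mrps18c, Mrpl33, Mrpl23, Mrpl24 and Mrpl30 turned negative with quantile normalization, where 71 of the 78 genes stayed above 0 against 76 as deposited.

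By level, Mrpl52 was the highest member in both groups (8.45 in naive and 9.40 in activated cells on the log2 scale). It was followed by Mrps21 (7.97) and Mrpl30 (7.36) in naive cells, and by Mrpl12 (9.15) and Mrpl54 (8.69) in activated cells. Mrpl12 and Mrpl54, a mitochondria-specific protein, came from places 15 and 9. The lowest levels were those of Mrps25 (3.08), Mrpl55 (3.60) and Mrpl17 (3.71) in naive cells, and of Mrps25 (4.62), Mrpl48 (4.67) and Mrpl53 (4.67) in activated cells. Mrpl52 (8.12 to 8.64) and Mrps21 (7.85 to 8.15) overlapped slightly over the naive libraries, and the 3 lowest activated members lay within their spread of each other, with SDs of 0.09, 0.17 and 0.26.

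**Figure D4:**
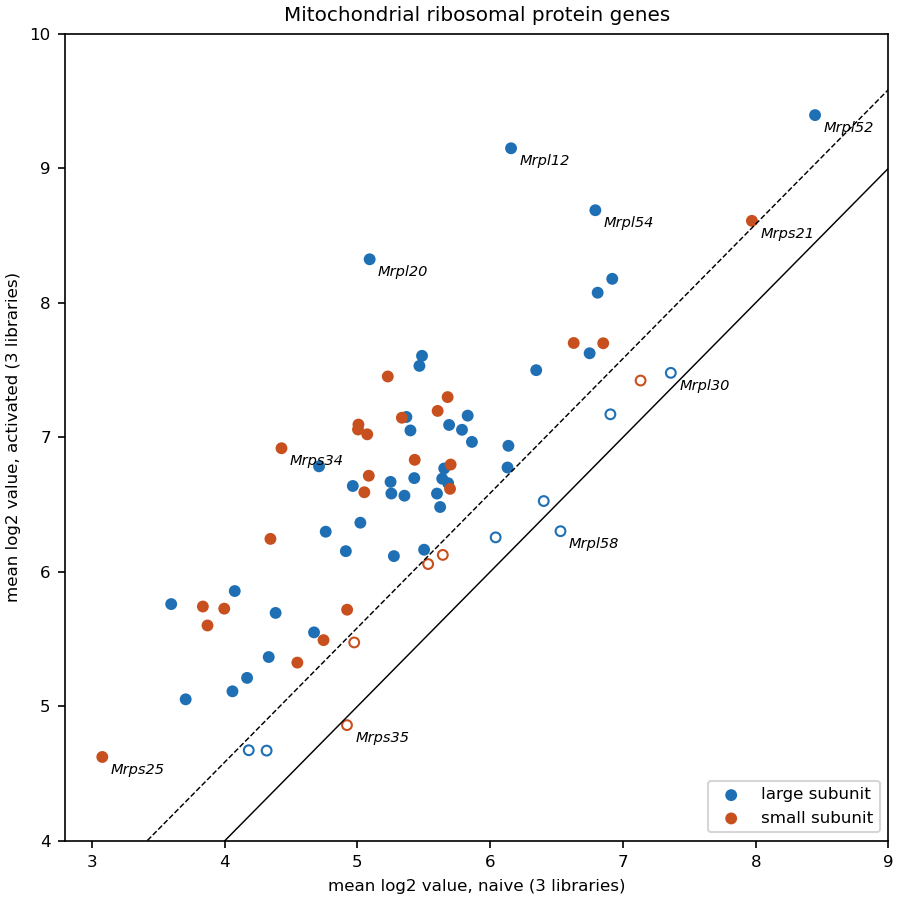
Mean log2 value of each mitochondrial ribosomal protein gene in activated libraries (vertical axis, n = 3) against naive libraries (horizontal axis, n = 3), large subunit in blue and small subunit in orange. Filled points were called higher. The solid line marks equal levels and the dashed line 1.5-fold. Nearly all points lie above the solid line, with Mrpl20 and Mrpl12 farthest from it, and only Mrpl58 and Mrps35 lie below it, with 5 more below after quantile normalization.

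Part of the size of the top changes rested on naive replicate 3. In 16 of 78 members (20.5%) it lay more than 0.5 below the mean of the other naive libraries, against 8.58% of all genes tested, and 9 of the 10 genes with a change of at least 4-fold were among them. The 16 genes were 8 of the 49 large and 8 of the 29 small subunit genes. The median deviation of naive replicate 3 was -0.06 for large and -0.14 for small subunit genes. The 16 genes had a median transcript GC content of 54.7%, against 49.6% for the other members. Their median change was 2.06 and became 1.79 without naive replicate 3, while that of the others was 1.05 and 1.06. Of the 10 genes, Mrpl20 (2.95), Mrpl12 (2.79), Mrps34 (2.18) and Mrpl45 (2.11) stayed at least 4-fold higher without that library. Across the 78 genes, the deviation of naive replicate 3 and GC content had a Pearson correlation of -0.49, against -0.54 across all genes tested. The fold change and GC content had one of 0.36, or 0.30 without that library, against 0.13 across all genes tested with all libraries. The part of GC content in the fold changes was not tested further. Without naive replicate 3 the subunit medians were 1.11 and 1.35, a large minus small difference of -0.24. Of the members, 65 were then called higher, against 30.4% of all genes tested. Activated replicate 1 was the lowest activated library in 55 of the 78 genes. Over all 78 genes, its median difference from the mean of the other activated libraries was -0.12, where the median over all genes tested was 0.17. Without activated replicate 1, 67 members were called higher, against 28.8% of all genes tested, and the subunit medians were 1.23 and 1.47. Without both libraries that stand apart, 68 members were called higher, against 28% of all genes tested. The medians were then 1.15 and 1.41, and Mrpl20 (3.05), Mrpl12 (2.83), Mrps34 (2.20) and Mrpl45 (2.11) were still at least 4-fold higher.

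Promoters were searched because so many of the genes moved together. RefSeq promoters (GRCm38.p6, 250 bases before to 50 after the start) matched 69 of the 78 genes by symbol. On either strand, CCGGAAG, the core bound by ETS family factors such as GABPA, was in 26 of 69 members (37.7%), against 22.6% of the promoters of 8321 genes tested and 9.93% of all 27025 promoters. Of its 31 occurrences, 28 lay from 100 bases before to 50 after the start. Shown here are the 160 bases before the RefSeq start, on the strand of the gene, for 4 genes with the motif and for Mrpl12, with CCGGAAG or its reverse complement CTTCCGG in capitals. Mrps22, Mrps26 and Mrps27 were called higher, Mrpl58 was not called, and Mrpl12, the second largest change, had none of the 6 motifs searched. The genes to show were chosen after their values were seen.
Mrps22: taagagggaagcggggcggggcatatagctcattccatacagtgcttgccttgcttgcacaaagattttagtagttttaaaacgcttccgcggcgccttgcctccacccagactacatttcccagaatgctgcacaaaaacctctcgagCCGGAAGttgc
Mrps26: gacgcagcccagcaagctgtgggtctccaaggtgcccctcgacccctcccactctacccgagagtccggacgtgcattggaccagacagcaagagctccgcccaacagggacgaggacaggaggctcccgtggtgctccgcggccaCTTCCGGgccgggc
Mrps27: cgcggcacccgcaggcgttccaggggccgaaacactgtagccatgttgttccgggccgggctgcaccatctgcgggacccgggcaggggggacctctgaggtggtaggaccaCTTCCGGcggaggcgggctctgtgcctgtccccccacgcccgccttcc
Mrpl58: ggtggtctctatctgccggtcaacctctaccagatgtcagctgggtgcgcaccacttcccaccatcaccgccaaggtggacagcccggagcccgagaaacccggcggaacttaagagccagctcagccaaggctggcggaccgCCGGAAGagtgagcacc
Mrpl12: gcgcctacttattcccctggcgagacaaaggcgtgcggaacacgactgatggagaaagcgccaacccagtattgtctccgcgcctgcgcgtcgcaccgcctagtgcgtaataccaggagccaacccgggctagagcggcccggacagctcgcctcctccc
They lie at chr9:98601680-98601839 (minus strand), chr2:130563597-130563756 (plus), chr13:99344626-99344785 (plus), chr11:115403592-115403751 (plus) and chr11:120484477-120484636 (plus).

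The motif was found on both sides of the call. It was in 20 of 58 members called higher (34.5%) and in 6 of 11 not called (54.5%), and the median change was 1.16 with and 1.27 without it. Mrps22 (1.54), Mrps26 (1.59) and Mrps27 (1.73) rose with the motif, while Mrpl58 (-0.23) carried it close to its start too. The E-box CACGTG, which Myc and related factors bind, was in 7.25% of members against 12.1% of the genes tested, GCATGCG (part of the NRF1 motif) in 11.6% against 7.86%, and GATGGCG (part of the YY1 motif) in 11.6% against 8.21%. CCAAT was in 39.1% against 43.4% and TATAAA in 7.25% against 8.08%. No motif contains another, and these matches describe letters only.

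Some of these genes start next to a gene on the other strand. A protein-coding gene on the opposite strand started within 1000 bases upstream for 19 of 78 members (24.4%), against 12% of the protein-coding genes tested. In 18 pairs both genes were tested. Of these 18 neighbours, 9 were called higher and 3 lower, where 31.2% and 21.6% of all genes tested were. Both genes of the pair were higher in 8, among them Mrpl57 with Ska3, a kinetochore gene (1.31 and 2.97), Mrpl51 with Ncapd2, a condensin subunit (1.42 and 1.98), Mrpl36 with Ndufs6, a complex I subunit (2.12 and 1.20), and Mrps12 with Sars2, the mitochondrial seryl-tRNA synthetase (2.05 and 1.37). In 6 pairs only the ribosomal gene was called higher, such as Mrps34 with Eme2 (2.49 and -0.25) and Mrpl49 with Fau (0.98 and -0.37). The pair moved apart in 2 cases, Mrpl2 with Klc4 (1.67 and -0.64) and Mrpl41 with Pnpla7 (0.98 and -1.40). Mrpl30 was not called while its neighbour Mitd1 fell by 1.82, and Mrps18c was not called while Helq rose by 0.68. These neighbours were chosen by position and their values are a description.

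Reads from overlapping genes could enter some values, since no source used here states whether the authors' counting used strand. In the GENCODE annotation of GRCm38, 33 of the 78 members share exon bases with another gene and 10 share over 20%. For Mrps34 the share was 77.8%, with Nme3 and Mapk8ip3, which differed by 0.05 and 0.45 and were not called. For Mrps25 it was 69.8%, with Nr2c2 (-0.16, not called). Mrpl43 shared 33.4% with Twnk, the mitochondrial DNA helicase, which rose by 0.90. The levels of these genes, of Mrpl53 (88%), Mrpl19, Mrps18b, Mrpl24, Mrpl47, Mrps27 and Mrps18c, and of Mrpl23, Mrpl48 and Mrps36, which have annotated pseudogenes, are uncertain to that extent.

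The rest of the mitochondrial translation apparatus was less uniform. Of the 5 mitochondrial ribosome subunits with other symbols, 4 were called higher. Gadd45gip1 (mL64) stood at 4.41, 4.49 and 3.44 in naive and 6.66, 6.51 and 6.78 in activated libraries and rose by 2.53, Ptcd3 (mS39) rose by 1.26, Aurkaip1 (mS38) by 1.13 and Chchd1 (mS37) by 0.96. Dap3 (mS29), the GTP-binding protein of the small subunit, differed by 0.16 (adjusted p = 0.257 by limma). Like most members, 4 of these 5 thus rose, and the naive library that stands apart was again the lowest for Gadd45gip1.

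The lists that follow are to be read against 31.2% of all genes tested called higher and a median of 0.13. Factors that assemble the ribosome or modify its RNA were called higher in 16 of 26 cases (61.5%) and lower in 0, with a median of 0.67. Rcc1l (2.02) and Mtg1 (1.59), which act in large subunit assembly, Mrm3, a ribosomal RNA methyltransferase (1.62), and Fastkd2 (1.34) led them, and Mterf3 (-0.46) and Mrm1 (-0.38) stayed under 1.5-fold. Of 13 translation factors 5 were called higher (38.5%), a share near that of all genes tested, with a median of 0.40. The elongation factors Tsfm (2.12), Tufm (1.62) and Gfm1 (1.26) rose, as did Taco1 (0.98) and Mtrf1 (0.81), whereas the initiation factors Mtif2 (0.26) and Mtif3 (-0.21) were not called. Genes that charge the mitochondrial tRNAs were higher in 12 of 20 (60.0%), with a median of 0.71, among them the aminoacyl-tRNA synthetases Yars2 (1.48), Sars2 (1.37) and Rars2 (1.29). The 20 include Qrsl1 (0.67), Gatb (0.98) and Gatc (0.65), amidotransferase subunits rather than synthetases, which were all called higher. Genes for mitochondrial DNA transcription and RNA processing were higher in 8 of 23 (34.8%), again near the share of all genes tested, with a median of 0.35. Tbrg4 (2.11), Fastkd3 (1.61), Fastk (1.40), Supv3l1 (1.39) and the transcription elongation factor Tefm (1.34) rose, while the transcription factors Tfam (0.16) and Tfb2m (0.11) and the polymerase gene Polrmt (0.35) were not called.

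Genes of the cytosolic ribosome, which makes all other cell proteins, were called in both directions. They were taken by symbol, as Rpl or Rps followed by a digit, with Rps6k genes left out. Of 83 such genes tested, 16 were called higher (19.3%, against 31.2% of all genes tested) and 21 lower (25.3%, against 21.6%). The median was -0.01 on the log2 scale. The symbol rule can take in paralogs, and the changes of these genes ran from -8.45 to 7.60. Their median level was 11.59 in naive and 11.54 in activated cells, far above the 5.38 and 6.68 of the mitochondrial ribosomal protein genes. The difference between the lists has no p here, since genes are not replicates.

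**Figure D5:**
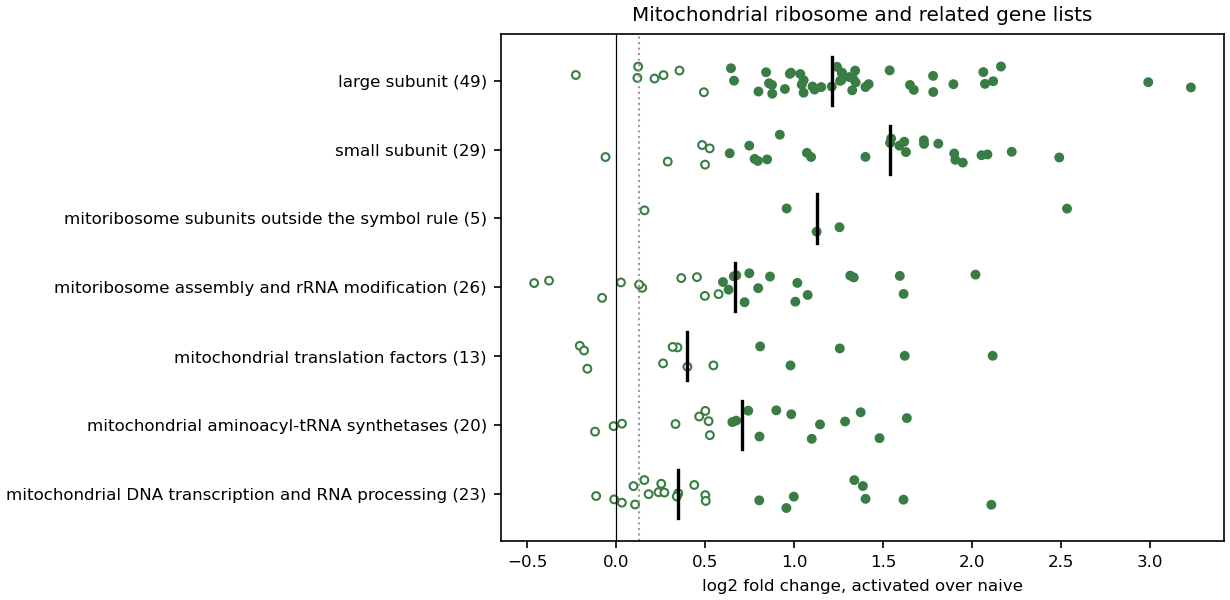
Log2 fold change, activated over naive, of each tested gene (point) of both subunits and of the related lists, with the number tested in parentheses. Filled points were called higher and vertical bars are medians. The solid line marks no change and the dotted line the median of all genes tested (0.13). Medians are 1.21 and 1.54 for the subunits, 1.13 for subunits outside the symbol rule, and between 0.35 and 0.71 for the other lists.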

How the data were processed

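RNA-seq of polyA RNA was analysed from 6 libraries, 3 of naive and 3 of activated CD4+ T cells, grouped by the submitters' titles. According to the methods and the submitters' processing notes, the authors used HISAT2 2.0.5 for alignment to mm10, StringTie 1.3.3b for assembly and featureCounts 1.5.0-p3 for counting. The authors deposited log2 values, headed FPKM, on a sheet named for the ComBat batch correction. No source used here gives the pseudocount or the batches. The study used DESeq2, which needs counts that the table does not hold, so the depth is unknown and no counting error can be given. Such a correction can shrink the replicate spread, so p-values here cover no more than the spread that remains among these libraries, which the study describes as biologically independent.

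In R 4.3.3, limma 3.58.1 (lmFit, eBayes with trend, no covariate) was fitted to the log2 values over genes at least 1 linear unit above the base in at least 3 libraries. Adjusted p-values follow Benjamini-Hochberg over all 10173 such genes, and the thresholds (adjusted p under 0.05, 1.5-fold) are those of the study. An exact permutation test of 3 against 3 libraries cannot go below p = 0.1 and was not used. The procedure was tested on simulated data. Tables were made in Python 3.11.15 (numpy 2.4.6, pandas 2.3.3, scipy 1.17.1) and figures with matplotlib 3.10.9.

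The members and lists were chosen with earlier results of these data known. Genes named are, per subunit, the 6 called genes with the largest change, the 4 with the smallest, the highest and lowest levels, the Mrps18 paralogs, genes at known sites, genes whose call changes under an alternative, and up to 4 genes per related list. Promoters shown were chosen after values were seen. Trmt61b, Mtrfr and Prorp were not analysed here, and 1 gene that the rule names is not reported here. Positions and overlaps came from GENCODE M21 (GRCm38) and promoters from RefSeq (GRCm38.p6). Alternatives were pseudocounts of 0.1, 0.5 and 1, no filter and a filter of 5 units, scaling by quantiles, by upper quartiles and by median of ratios, no trend, a block for the replicate number, omission of each library in turn, the similar libraries averaged, and a 2-fold and no fold threshold. Leaving out naive replicate 3 and activated replicate 1 together was added after seeing the data.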

Additional observations from a re-analysis of the deposited data

How the results depend on the processing

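The number of members called higher stayed between 64 and 67 when each library was left out in turn. It was 66 to 67 with the pseudocounts and filters and 64 with similar libraries averaged. Median-of-ratios scaling gave 63, upper-quartile 60 and quantile 56. A 2-fold threshold gave 50 (3094 genes called in all, 1913 of them higher) and no fold threshold 70. The share of all genes tested called higher, 31.2% in the results above, also moved. It was 28.8% to 32.4% with each library left out, 36.3% to 37.2% with the pseudocounts and 32.7% with libraries averaged. No filter gave 21.6% and the filter of 5 units 34.5%. The scalings gave 27.5%, 25.3% and 25.5% in the order above, the 2-fold threshold 18.8% and no fold threshold 41.2%. Quantile normalization called 1 member lower, Mrpl58. With the scalings the split of all calls moved from 3175 higher and 2195 lower to 2570 and 2729 (upper-quartile) and 2595 and 2637 (quantile). The small subunit median of 1.54 became 1.66, 1.65 and 1.63 with pseudocounts of 0.1, 0.5 and 1, 1.22 with quantile, 1.42 with median-of-ratios and 1.32 with upper-quartile scaling, 1.45 with similar libraries averaged, 1.41 without both libraries that stand apart, and 1.35 to 1.51 with each library left out. The large subunit median of 1.21 became 0.90, 1.09 and 0.99 with the 3 scalings in the same order. The large minus small difference of -0.33 became -0.27 with libraries averaged, -0.26 without both libraries and -0.32 to -0.24 with each library left out. Apart from the fold rules, 54 of the 66 called members kept their call in all 18 alternatives. Calls were lost for Mrpl10, Mrpl18, Mrpl4, Mrpl52, Mrps15 and Mrps33 with quantile, Mrps2 and Mrps31 with upper-quartile, Mrpl43 with both and Mrpl39 with all 3 scalings. Mrpl32 also lost it without activated replicate 3, and Mrps21 without that library or naive replicate 3, and both with libraries averaged. Mrpl48 was called with pseudocounts of 0.1 and 0.5 and without both libraries, and Mrps30 without activated replicate 1. The cause was not tested. Same-numbered libraries of both groups did not deviate together (correlations -0.011, -0.051 and -0.138). This cannot settle whether the numbers pair libraries, since the batches of the ComBat correction are unknown and it could have removed a shared deviation. The replicate block gave 66 members, with 3181 genes higher and 2202 lower. Without read counts, low genes such as Mrps25 carry an unknown counting error.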
